A study of Danio rerio with 32 samples.

Results

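The genes described here are the neurotensin receptor gene NTSR1 and 7 neuropeptide precursor genes, measured in sorted V2a interneurons of the zebrafish spinal cord. They were chosen from a list of 8 symbols because NTSR1 and UCN3 (listed as ucn3l) are higher in cells without a tracer, so the values in traced against untraced cells chose them and are given as a description, with no test. Of the 8 symbols, 7 matched 1 gene each among the 42370 genes of the deposited table: NTSR1, NTS, UCN3, penka, pdyn, NPY and tac1. No ID carried the symbol sst1.1, and the gene named SST (ENSDARG00000040799) was taken in its place after its values were seen. Several symbols are in human style because the name table writes them so.

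V2a interneurons are excitatory spinal neurons with a part in locomotion. Cells came from spinal cord segments 1 to 7 of a transgenic line in which a V2a marker drives a green reporter. All 6 groups carry this transgene, and rhodamine dextran, a dye that axons carry back to the cell body, split the sorted cells. Cells without the dye were sequenced from uninjured fish (Gcon, 6 libraries) and at 3 weeks (G3W, 5) and 8 weeks (G8W, 5) after spinal cord injury. Cells with the dye came from the same states (Dcon, 5; D3W, 5; D8W, 6); after injury these are, per the labels, neurons with a regrown axon. The segments lay rostral to the lesion. The series design gives 20 uninjured fish and 20 fish at 3 or 8 weeks, without saying whether the latter is per time, and which fish went into which library is not stated, so the p-values reflect the spread among these libraries, which may be technical.

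Neuropeptides are cut from longer precursor proteins, stored in dense-core vesicles and released to act on G protein-coupled receptors. Neurotensin, made from NTS, acts on NTSR1, and urocortin 3, made from UCN3, is a peptide of the corticotropin-releasing factor family that acts mainly on the receptor CRHR2. penka and pdyn code for precursors of opioid peptides (enkephalins and dynorphins), SST for somatostatin, NPY for neuropeptide Y and tac1 for the tachykinins substance P and neurokinin A. In the zebrafish spinal cord, somatostatin is known from neurons that contact the cerebrospinal fluid.

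Levels are in FPKM as the authors deposited them. By definition FPKM is a fragment count divided by gene length and by library total. The lengths and totals used are not given, so setting levels of different genes side by side assumes that this definition holds. Library totals inferred from the steps between low FPKM values ran from 9.42 to 27.7 M fragments. Across the 8 genes and 32 libraries, a count of 3 fragments, taken as the floor behind a value of 0, was worth 0.0753 to 0.717 FPKM. That floor covers counting error only. D3W replicates 3 and 5 had the fewest genes at 1 FPKM or more (7755 and 8710, against 10929 to 18414 in the other 30 libraries). Of 1364 genes with a median of at least 50 FPKM, 61 were at 0 in D3W replicate 3 and 43 in D3W replicate 5, so a 0 may be a failed detection; up to 45 were at 0 in another library. Markers of other cells were present too: the 12 oligodendrocyte and Schwann cell markers summed to between 2102 and 22643 FPKM in a library. The 19 microglia and macrophage markers summed to between 110 and 13680 FPKM. In sorted pools, fewer cells of a type and less RNA per cell cannot be told apart.

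NTSR1 was present in every library of untraced cells and at or near 0 in most libraries of traced cells. In Gcon its level was 25.3 FPKM in the lowest library, 147 at the median and 269.9 in the highest. In Dcon the 5 libraries stood at 0, 0.436, 31.99, 0 and 0 FPKM. Only Dcon replicate 3 of these lay within the Gcon range, and the other 4 lay below all Gcon libraries. At 3 weeks the G3W libraries held 74.9, 80.1, 43.1, 107 and 46.1 FPKM. The D3W libraries held 1.62, 0.667, 0, 0 and 0 FPKM, all of them below the lowest G3W library. This absence of overlap was shared by 5.53% of the 22552 genes tested, those lower in D3W than in G3W. At 8 weeks G8W held 131, 86.7, 24.7, 17.3 and 9.38 FPKM, and D8W had 0 in its lowest library, 2.77 at the median and 13.6 in the highest. The 8 week groups overlapped, since D8W replicate 3 exceeded G8W replicate 5.

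On the log2(scaled FPKM + 1) scale, the difference D minus G for NTSR1 was -5.31 in uninjured cells, -5.36 at 3 weeks and -3.32 at 8 weeks. By median FPKM the groups ran Gcon, G3W, G8W and D8W, with Dcon and D3W both at 0. Each neighbouring pair in that order overlapped in range. NTSR1 was above 0 in 16 of 16 untraced and 7 of 16 traced libraries, and 10 fragments was the smallest inferred count behind a value above 0.

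UCN3 followed the same division, with single traced libraries standing out. In Gcon its level was 26.6 FPKM in the lowest library, 72.7 at the median and 185 in the highest. In Dcon it was 0, 0, 26.0, 0 and 12.1 FPKM. The 2 groups did not overlap, although Dcon replicate 3 came within 1 FPKM of the lowest Gcon library; of all tested genes, 1.75% lay wholly lower in Dcon. At 3 weeks G3W held 412, 242, 97.2, 216 and 93.7 FPKM. D3W replicate 1 held 144 FPKM, and the other 4 D3W libraries were at 0. That library lay inside the G3W range, so the groups overlapped through it alone. At 8 weeks G8W held 156, 249, 39.6, 223 and 37.1 FPKM. In D8W, 5 of 6 libraries were at 0 and replicate 4 held 0.966 FPKM, which is 8 inferred fragments. These groups did not overlap, as was the case for 1.19% of tested genes lower in D8W.

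The log2 difference D minus G for UCN3 was -4.06 in uninjured cells, -5.79 at 3 weeks and -6.46 at 8 weeks. In FPKM, UCN3 was highest in the median G3W library (216), followed by G8W (156) and Gcon (72.7), and the 3 ranges overlapped. The median was 0 in each traced group. The gene was above 0 in 16 of 16 untraced and 4 of 16 traced libraries.

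**Figure D1:**
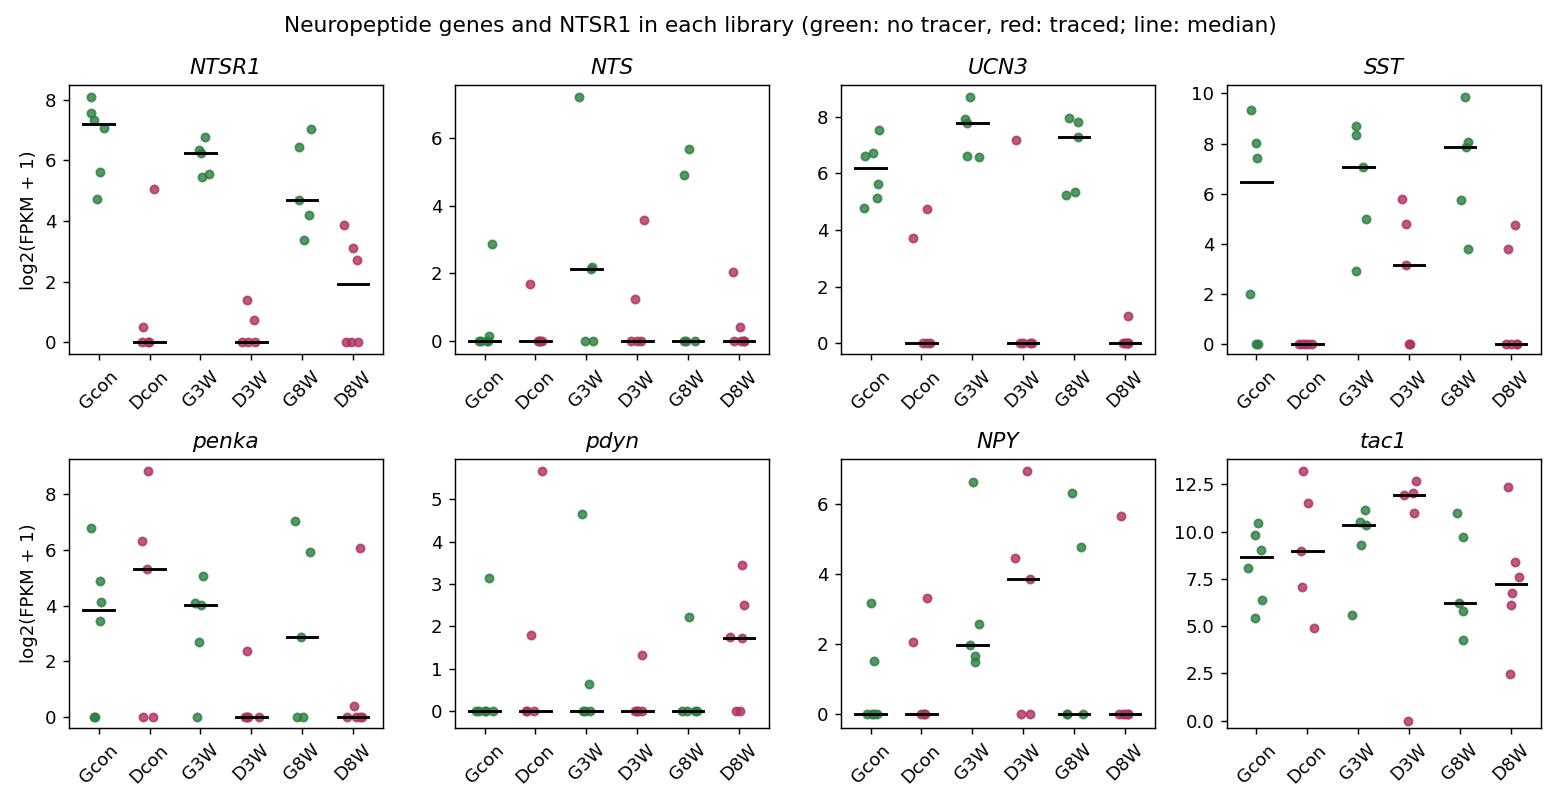
Level of each of the 8 genes in every library, as log2(FPKM + 1) on the vertical axis, by group on the horizontal axis (green points, cells without tracer; red points, traced cells; black line, group median). NTSR1 and UCN3 lie above 0 in all 16 untraced libraries, while NTS, pdyn and NPY are at 0 in many libraries of both kinds.

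NTS, the ligand gene of NTSR1, was sparse in the same cells. It was above 0 in 12 of 32 libraries, 7 untraced and 5 traced, and its highest values were 148 FPKM in G3W replicate 5 and 50.1 FPKM in G8W replicate 4. The D libraries reached at most 10.99 FPKM, in D3W replicate 1, and the groups overlapped at each state. Its log2 difference D minus G was -0.12 in uninjured cells, -1.20 at 3 weeks and -1.62 at 8 weeks. Its Gcon libraries reached at most 6.32 FPKM, far under the 25.3 FPKM of the lowest Gcon library for NTSR1. The receptor was thus measured in many libraries where its ligand gene was listed at 0. SORT1, which codes for sortilin, another neurotensin-binding protein, was above 0 in all 32 libraries for 1 of its 2 IDs (ENSDARG00000056252), with group medians of 3.74 to 12.1 FPKM.

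SST also lay mostly in untraced cells. In Gcon the lowest library was at 0, the median was 87.3 FPKM and the highest library held 652 FPKM. All 5 Dcon libraries were at 0, so no fold is given. The groups overlapped because 2 Gcon libraries were at 0 as well. At 3 weeks G3W held 133, 323, 6.60, 31.2 and 410.5 FPKM. D3W held 8.01, 26.9, 0, 54.8 and 0 FPKM, which overlaps the lower G3W libraries. At 8 weeks G8W held 13.03, 53.2, 919, 266 and 234 FPKM, while 4 of 6 D8W libraries were at 0 and the others held 26.2 and 12.98 FPKM. D8W replicate 1 lay above G8W replicate 1, so these groups overlapped too. The log2 difference D minus G was -3.28 at 3 weeks and -5.41 at 8 weeks. Markers of cerebrospinal fluid contacting neurons varied widely between the same libraries. The sum of the 10 listed marker IDs ran from 15.8 to 1133 FPKM in Gcon and from 0.535 to 135 in Dcon. It was 68.0 to 318 FPKM in G3W, 6.15 to 2637 in D3W, 192 to 1867 in G8W and 5.58 to 6072 in D8W. Of the 8 tested IDs 6 were lower in Dcon than in Gcon, 4 in D3W than in G3W and 8 in D8W than in G8W. Their median log2 differences were -1.42, -0.36 and -2.16, beside -0.16, -0.29 and -0.06 over all tested genes. The part of these markers in the SST values was not tested. PKD2L1, a channel gene that defines these cells, was above 0 in some libraries of every group, reaching 0.535 FPKM in Dcon and 89.9 FPKM in D8W.

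The opioid precursor genes overlapped between traced and untraced cells at each state. penka was above 0 in 11 of 16 untraced and 6 of 16 traced libraries. In Gcon it ran from 0 to 109 FPKM around a median of 13.3. G3W held 15.4, 5.48, 32.9, 0 and 16.1 FPKM. G8W held 0, 0, 59.5, 131 and 6.35 FPKM. Each untraced group thus had at least 1 library at 0 beside libraries well above the floor. Its highest library was Dcon replicate 1 with 458 FPKM, where the other Dcon libraries held 39.1, 0, 78.6 and 0 FPKM. In D3W it was at 0 in 4 libraries and at 4.16 FPKM in replicate 4. The D3W values all fell within the Dcon range. In D8W it was at 0 in 4 of 6 libraries, with 66.2 FPKM in replicate 2 and 0.326 FPKM in replicate 5. pdyn was above 0 in 11 libraries, 4 untraced and 7 traced, with its 2 highest values in Dcon replicate 4 (50.03) and G3W replicate 3 (24.3). The log2 difference D minus G of penka was 1.102 in uninjured cells, -2.40 at 3 weeks and -1.99 at 8 weeks, and that of pdyn was 1.05, -0.70 and 1.32.

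NPY was above 0 in 15 libraries, of which 9 were untraced. All 5 G3W libraries had it, at 1.79 to 96.3 FPKM, and its highest library was D3W replicate 2 with 121 FPKM. Its medians were 0 in Gcon, Dcon, G8W and D8W. tac1 was above 0 in 31 of 32 libraries and had the highest median of the 8 genes in every group except G8W, where SST (234 FPKM) and UCN3 (156 FPKM) had higher medians than tac1 (73.2 FPKM). In Dcon it held 9422, 28.7, 136, 2961 and 508 FPKM. In D3W it held 6481, 3943, 0, 4155 and 2054 FPKM, where the 0 belongs to the library with fewest detected genes. The Gcon libraries ran from 41.9 to 1402 FPKM around a median of 401. At 3 weeks G3W held 1485, 1299, 2294, 47.3 and 638 FPKM. At 8 weeks G8W held 73.2, 843, 55.5, 2037 and 18.2 FPKM, and D8W ran from 4.57 to 5233 FPKM around a median of 151. Traced and untraced libraries overlapped at each state, and each group held both low and high libraries. The log2 difference D minus G of tac1 was 1.23 in uninjured cells, 0.64 at 3 weeks and 0.35 at 8 weeks, and that of NPY was 0.35, 0.63 and -1.27.

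**Figure D2:**
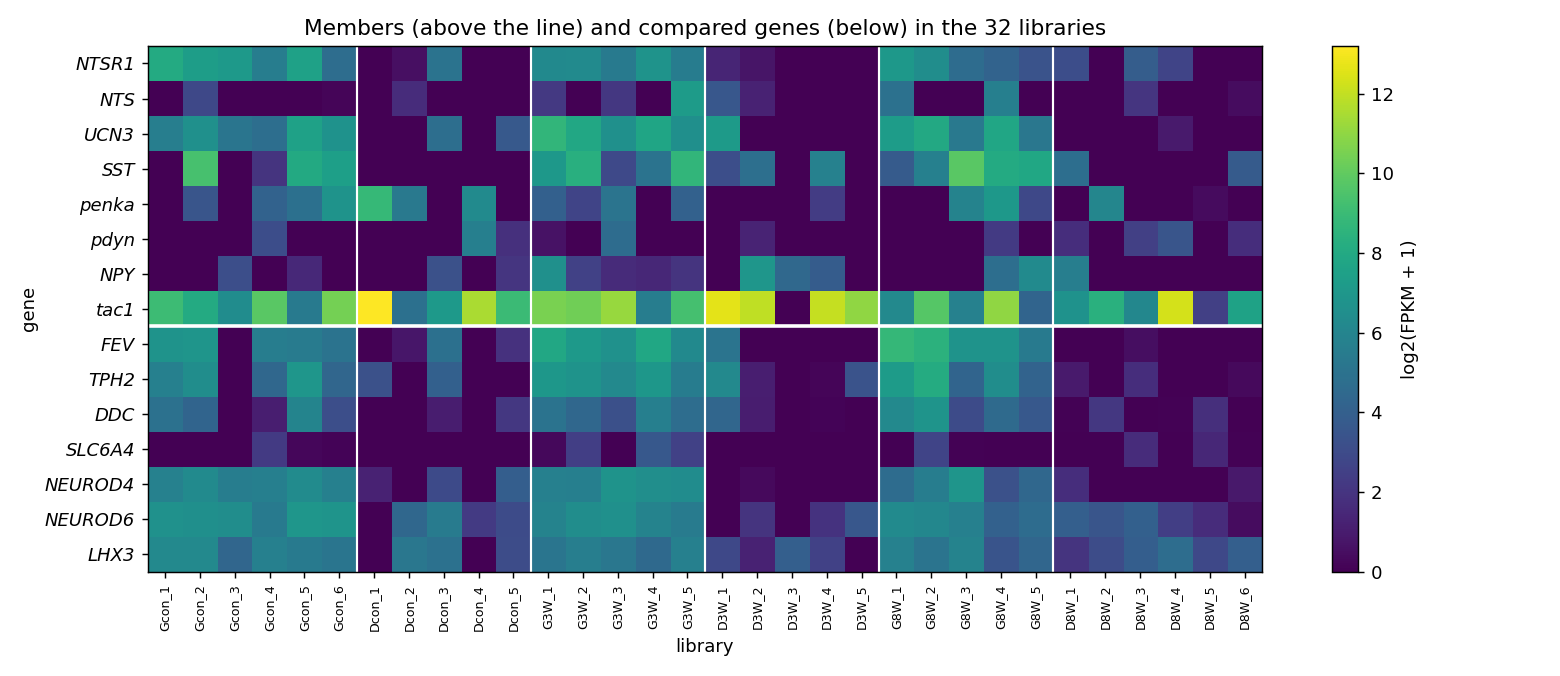
Levels in the 32 libraries (columns, in group order) of the 8 genes above the white line and of 7 compared genes below it, coloured by log2(FPKM + 1). UCN3 and FEV are both high in the untraced libraries and in D3W replicate 1, while Gcon replicate 3 has UCN3 at 34.4 FPKM and FEV, TPH2 and DDC at 0.

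The rule did not use the comparisons over injury and time. In these, 0 of the 8 genes passed an adjusted p of 0.05 (limma, Benjamini-Hochberg over 22552 genes) in any of 6 comparisons. Of all tested genes, 0.803% passed in D3W against Dcon, 0.0754% in D8W against Dcon, 0.0842% in G3W against Gcon and 0.031% in G8W against Gcon. Between the times 0.0399% passed in D8W against D3W and 0.00443% in G8W against G3W. At an unadjusted p under 0.05 there was 1 of the 8 genes in D3W against Dcon and 1 in D8W against Dcon, both penka, and 0 in the other 4 comparisons; the shares of all genes were 12.5% and 10.7% in the first pair, and elsewhere 7.0% in G3W against Gcon, 6.26% in G8W against Gcon, 9.11% in D8W against D3W and 3.15% in G8W against G3W. Between the groups of a comparison 0 of the 8 genes were without overlap, in all 6. The share of all genes without overlap was 1.79% in D3W against Dcon, 1.77% in D8W against Dcon, 1.25% in G3W against Gcon, 1.02% in G8W against Gcon, 0.306% in D8W against D3W and 1.29% in G8W against G3W.

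The fitted change of penka was -3.52 (SE 1.49, adjusted p = 0.296) in D3W against Dcon and -2.92 (SE 1.43, adjusted p = 0.464) in D8W against Dcon, on the log2(scaled FPKM + 1) scale. Both rest on 3 of 5 Dcon libraries with penka above 0. In untraced cells the change of UCN3 was 1.45 (SE 0.97, adjusted p = 0.849) at 3 weeks and 0.88 (SE 0.97, adjusted p = 0.957) at 8 weeks. An interval of 2 SE either side ran from -0.49 to 3.39 and from -1.06 to 2.82, so neither a rise of several-fold nor no change lies outside it. NTSR1 in untraced cells was at -0.64 (SE 0.86, adjusted p = 0.954) at 3 weeks and -1.36 (SE 0.86, adjusted p = 0.876) at 8 weeks. In traced cells the change of NTSR1 was -0.69 (SE 0.90, adjusted p = 0.829) at 3 weeks and 0.64 (SE 0.86, adjusted p = 0.838) at 8 weeks. In traced cells UCN3 was at -0.28 (SE 1.01, adjusted p = 0.965) at 3 weeks, and the value ran from -1.70 without D3W replicate 1 to 0.48 without Dcon replicate 3. Without D3W replicates 3 and 5 it was 0.67, so its direction is not settled. NPY at 3 weeks was at 2.18 (SE 1.31, adjusted p = 0.529) in traced and 1.90 (SE 1.25, adjusted p = 0.844) in untraced cells. NTS in untraced cells was at 1.71 (SE 1.00, adjusted p = 0.799) at 3 weeks and 1.67 (SE 1.00, adjusted p = 0.866) at 8 weeks. Without G3W replicate 5 the 3 week value of NTS was 0.50. SST in untraced cells was at 1.88 (SE 1.44, adjusted p = 0.88) at 3 weeks and 2.75 (SE 1.44, adjusted p = 0.822) at 8 weeks. Its mean was 181 FPKM in both Gcon and G3W and 297 FPKM in G8W, and 2 of 6 Gcon libraries were at 0. Of the 8 tested cerebrospinal fluid contacting neuron IDs 5 were higher in G3W than in Gcon and 8 in G8W than in Gcon. Their median changes were 0.32 and 1.98 log2, beside 0.15 and 0.09 over all tested genes. The part of these markers in the SST changes was not tested. In D3W against Dcon tac1 was at 0.60 (SE 2.05, adjusted p = 0.959), with 3.04 when D3W replicate 3 was left out and -0.47 when Dcon replicate 2 was. The comparisons at 3 and 8 weeks share their uninjured libraries. Standard errors of the 8 genes ran from 0.86 to 2.05, which is wide beside these changes.

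**Figure D3:**
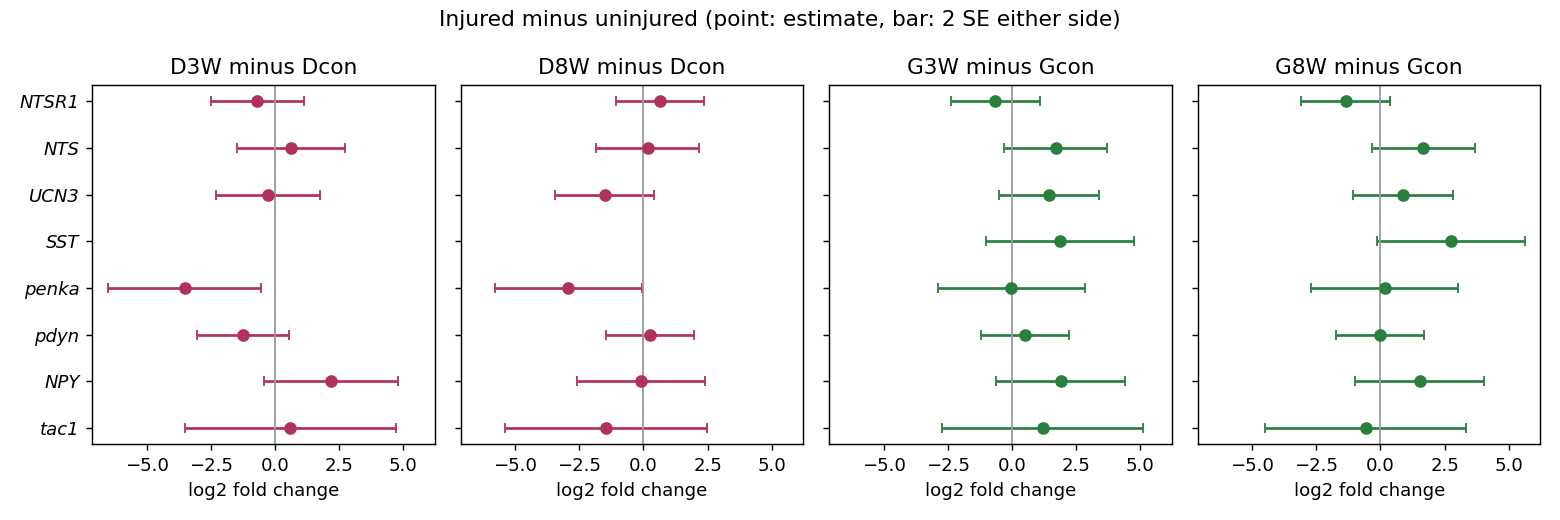
Fitted log2 fold change of each gene (horizontal axis) in injured against uninjured cells, traced in red and untraced in green, with bars of 2 SE either side. Only the bars of penka in the traced comparisons lie wholly on 1 side of 0, and its adjusted p was 0.296 and 0.464; SST has no point where all Dcon libraries are at 0.

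Receptors and binding proteins of the peptides were present in these cells at low levels. Of 28 such IDs, 23 were tested, and 0 passed in any of the 9 pairwise comparisons. In the D against G comparisons, 0.288% of all genes passed in uninjured cells, 1.28% at 3 weeks and 0.0665% at 8 weeks. At an unadjusted p under 0.05 there were 3 of the 23 in uninjured cells, 7 at 3 weeks and 2 at 8 weeks, beside 10.6%, 13.5% and 6.95% of all genes. In the injury comparisons 4 of the 23 had such a p in D3W against Dcon, beside 12.5% of all genes. The counts were 2 in D8W against Dcon (10.7%), 2 in G3W against Gcon (7.0%) and 4 in G8W against Gcon (6.26%). Between the times they were 4 in D8W against D3W (9.11%) and 1 in G8W against G3W (3.15%). CRHR1, a corticotropin-releasing factor receptor, was above 0 in all 32 libraries, with medians of 2.58 to 6.10 FPKM. Of the receptors of urocortin 3, CRHR2 (ENSDARG00000062377) had a median of 5.46 FPKM in Gcon and at most 0.379 FPKM elsewhere, and crhr2 (ENSDARG00000103704) had medians of 0 to 14.5 FPKM. CRHBP, which codes for a secreted protein that binds corticotropin-releasing factor, had its highest median in D3W (28.7 FPKM), where 2 of 5 libraries were at 0. The delta opioid receptor gene OPRD1 (ENSDARG00000037159) was above 0 in 15 of 16 untraced libraries. Its medians were 14.2 FPKM in Gcon, 12.2 in G3W and 43.8 in G8W, and 0, 0 and 0.912 FPKM in Dcon, D3W and D8W. Its log2 difference D minus G was -3.07 (limma, SE 0.84, adjusted p = 0.0598) at 3 weeks and -3.02 (SE 0.81, adjusted p = 0.222) at 8 weeks, neither past the threshold. This ID had the smallest p of the 23 in both comparisons and is picked out by it. It was above 0 in 1 of 5 D3W and 3 of 6 D8W libraries. The other OPRD1 ID (ENSDARG00000041660) had a mean of 21.05 FPKM (SD 22.4) in D3W against 5.25 (SD 5.18) in G3W. At 8 weeks its mean was 19.9 FPKM in D8W and 10.4 in G8W, while its medians had the opposite order, at 5.10 and 10.2 FPKM. It was above 0 in all 5 D3W libraries. The mu opioid receptor gene OPRM1 had a median of 7.55 FPKM in Gcon against 3.48 FPKM in Dcon. Its G3W median was 5.77 FPKM, and its medians in D3W and D8W were 0.

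Of the somatostatin receptor genes, SSTR2 (ENSDARG00000059090) was above 0 in all G3W and G8W libraries, and its other ID was listed at 0 in all 32 libraries. SSTR1 had its highest median in Gcon, 17.5 FPKM. Of the neuropeptide Y receptor genes, NPY2R (ENSDARG00000089943) had a median of 24.7 FPKM in Dcon and 0 in D3W, and its change was -2.87 (SE 1.16, limma adjusted p = 0.262). npy8ar, another receptor gene of this family, was highest in Gcon (median 29.2 FPKM), with medians of 8.54 in Dcon and 0 in D3W. The tachykinin receptor genes were low although tac1 was abundant: the medians of TACR1 (ENSDARG00000035533) ran from 0.125 to 5.89 FPKM and those of TACR2 from 0 to 5.36 FPKM. TACR3 (ENSDARG00000075112) had a median of 5.68 FPKM in Gcon and 0 in G3W, with a change of -1.87 (SE 0.68, limma adjusted p = 0.514).

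**Figure D4:**
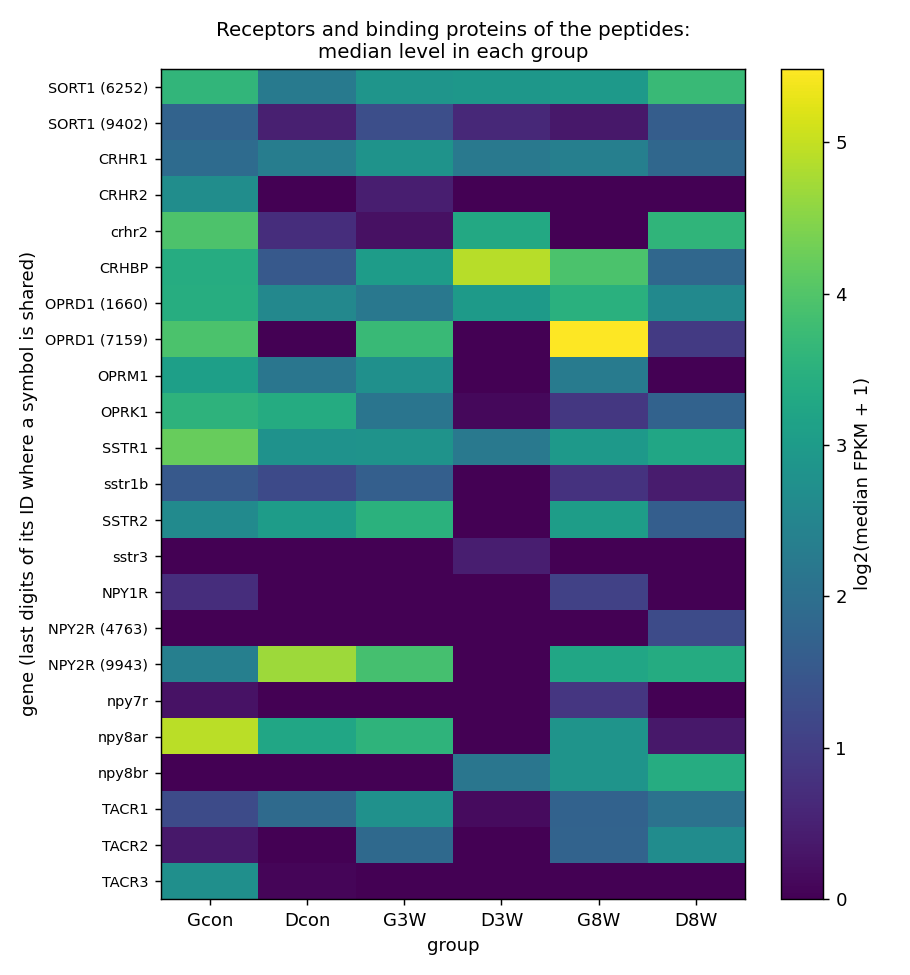
Median level of the 23 tested receptor and binding protein IDs (rows) in each group (columns), as log2(median FPKM + 1). The lightest cell is OPRD1 (ENSDARG00000037159) in G8W, at a median of 43.8 FPKM, and most medians lie under 15 FPKM.

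Among other genes of the peptide system few calls were made. Of 63 IDs of other neuropeptide precursors 32 were tested, and 0 passed in any of the 9 comparisons. In D3W against Dcon 25 of the 32 fold changes were above 0, with a median of 1.40 log2 beside 0.01 over all tested genes. Of these genes 4 were at 0 throughout 1 group, and the median stayed at 1.40 with the 1 whose length could be inferred set at its floor. The others of the 4 were left as they were, so this cannot show how far values at 0 shape the median. Of the 32 precursors 22 were above 0 in D8W against Dcon, 22 in G3W against Gcon and 21 in G8W against Gcon. The medians there were 0.63, 0.52 and 0.47, beside 0.20, 0.15 and 0.09 over all tested genes. sst6, a further somatostatin gene, held 820 to 1623 FPKM in D3W and 61.7 to 564 FPKM in Dcon, without overlap (0.603% of genes lay wholly higher in D3W), and its change was 2.24 (SE 0.63, adjusted p = 0.0731). CCK, the cholecystokinin gene, was above 0 in every untraced library and in 6 of 16 traced ones; its D minus G difference was -4.20 (SE 1.28, adjusted p = 0.159) in uninjured cells and -5.39 (SE 1.28, adjusted p = 0.107) at 8 weeks. Of 33 IDs for peptide processing and dense-core vesicles 31 were tested and 0 passed. In D3W against Dcon 23 of these 31 had a negative fold change, with a median of -0.59. Negative changes numbered 20 in D8W against Dcon (median -0.27), 21 in G3W against Gcon (-0.40) and 24 in G8W against Gcon (-0.40). FURIN, a precursor-cutting protease gene, had the smallest p in D8W against Dcon, at 2.77 (SE 0.68, limma adjusted p = 0.0965).

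Of 92 neuropeptide receptor IDs 59 were tested and 1 passed in 1 comparison. KISS1R, a kisspeptin receptor gene, was lower in D3W than in G3W (limma adjusted p = 0.0153), in the comparison where 1.28% of all genes passed. It was above 0 in 7 of the 32 libraries, none of them D3W. It thus passed the filter (1 FPKM in 5 or more libraries) only through other groups, and the call is not independent of that filter. G3W held 1.63, 5.29, 8.82, 5.47 and 0 FPKM, and all 5 D3W libraries were at 0. The group mean of G3W, 4.24 FPKM, was 26.8 times the mean floor of 3 fragments in the D3W libraries. That floor covers counting error only and a 0 may be a failed detection, so no lower bound of the difference follows. Of the G3W libraries 1 shared the value of 0. In other fits KISS1R missed the threshold: with G3W and D3W alone (limma adjusted p = 0.206), without D3W replicates 3 and 5 (0.103) and without G3W replicate 3 (0.0611).

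Genes whose pattern over all 32 libraries was most like that of UCN3 were FEV (Pearson r = 0.926), TPH2 (0.859), DDC (0.852) and NEUROD4 (0.831). FEV is a transcription factor of serotonin neurons, TPH2 and DDC are the enzymes that make serotonin, and NEUROD4 is a neuronal transcription factor. The 32 points share the split by tracer, so values were also taken within each kind. Within the 16 untraced libraries r was 0.576 for FEV, 0.755 for TPH2, 0.744 for DDC and -0.237 for NEUROD4. Within the 16 traced libraries it was 0.949 for FEV, and 0.834 without the 2 libraries farthest from the median of FEV. Of the libraries left, only Dcon replicate 5 (12.1 FPKM) and D8W replicate 4 (0.966 FPKM) had UCN3 above 0, so the value for FEV rests on few libraries. For TPH2 r was 0.629 in traced libraries and -0.241 without the 2 farthest from its own median, so there it rests on those libraries. For DDC it was 0.713 and 0.523.

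In single libraries FEV held 33.1 FPKM in D3W replicate 1 and 28.2 FPKM in Dcon replicate 3, the traced libraries with the highest UCN3. Dcon replicate 5, with UCN3 at 12.1 FPKM, had FEV at 2.71 FPKM. The other 13 traced libraries had FEV at no more than 0.745 FPKM. In Gcon replicate 3, by contrast, UCN3 was at 34.4 FPKM with FEV, TPH2 and DDC listed at 0. The serotonin transporter gene SLC6A4 was at 0 in all Dcon and D3W libraries and reached 11.5 FPKM in G3W. At 8 weeks it was above 0 in 3 of 6 D8W libraries, up to 2.23 FPKM, and in 2 of 5 G8W libraries.

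FEV and TPH2 are named here for their likeness to UCN3, so their D against G values are a description, with no test. The log2 difference D minus G of FEV was -3.17 in uninjured cells, -5.86 at 3 weeks and -7.06 at 8 weeks. FEV was at 0 in 4 of 5 D3W and 5 of 6 D8W libraries. All G3W libraries held FEV at 76.4 FPKM or more and all G8W libraries at 42.3 FPKM or more, so the groups did not overlap at either time. Of all tested genes, 5.53% lay wholly lower in D3W than in G3W and 1.19% in D8W than in G8W. In uninjured cells the groups overlapped for FEV, with the lowest Gcon library at 0 and the highest Dcon library at 28.2 FPKM. The log2 difference of TPH2 was -2.92, -3.91 and -5.39 in the same order. Both genes belong to a list of 9 sensory and serotonergic marker IDs, of which 5 were tested, and the other 3 did not follow UCN3 over 32 libraries: r was 0.255 for SLC6A4, -0.079 for trpv1 and -0.131 for SCN10A, the latter 2 being ion channel genes of sensory neurons. In uninjured cells and at 3 weeks 1 of the 5 fold changes D minus G was above 0 and 4 below, with medians of -0.70 and -1.64. At 8 weeks 2 of the 5 were above 0 and 3 below, with a median of -0.19. The medians over all tested genes were -0.16, -0.29 and -0.06 in the same order. The 9 marker IDs summed to 8.10 to 211 FPKM in Gcon, 131 to 370 in G3W and 61.2 to 643 in G8W. In traced cells the sums were 0.804 to 43.5 FPKM in Dcon, 0.159 to 107 in D3W and 1.30 to 10.9 in D8W. In untraced cells these sums consist mostly of FEV and TPH2, so they are no separate observation. In G3W the means of FEV and TPH2 were 157 and 96.7 FPKM, and the next highest, that of SLC6A4, was 4.23 FPKM. FEV and TPH2 were lower in traced cells beside UCN3, and their part in its values was not tested.

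For NTSR1 the most alike genes over 32 libraries were NEUROD6 (ENSDARG00000040008, r = 0.845), abcb5 (0.841), NEUROD4 (0.833) and ZFPM2 (0.827). NEUROD6 is a neuronal transcription factor, abcb5 a membrane transporter and ZFPM2 a zinc finger cofactor of GATA factors. Within untraced libraries r was 0.674 for NEUROD6, 0.308 for abcb5, 0.276 for NEUROD4 and 0.501 for ZFPM2. Within traced libraries it was 0.544, 0.554, 0.255 and 0.449 in the same order. Next, the 2 traced libraries farthest from the median of the compared gene were left out, a pair chosen anew for each gene. Without them r was 0.357 for NEUROD6, 0.095 for abcb5, 0.179 for NEUROD4 and 0.544 for ZFPM2. NTSR1 and UCN3 had r = 0.794 over all 32 libraries, but 0.154 within untraced and 0.314 within traced ones.

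**Figure D5:**
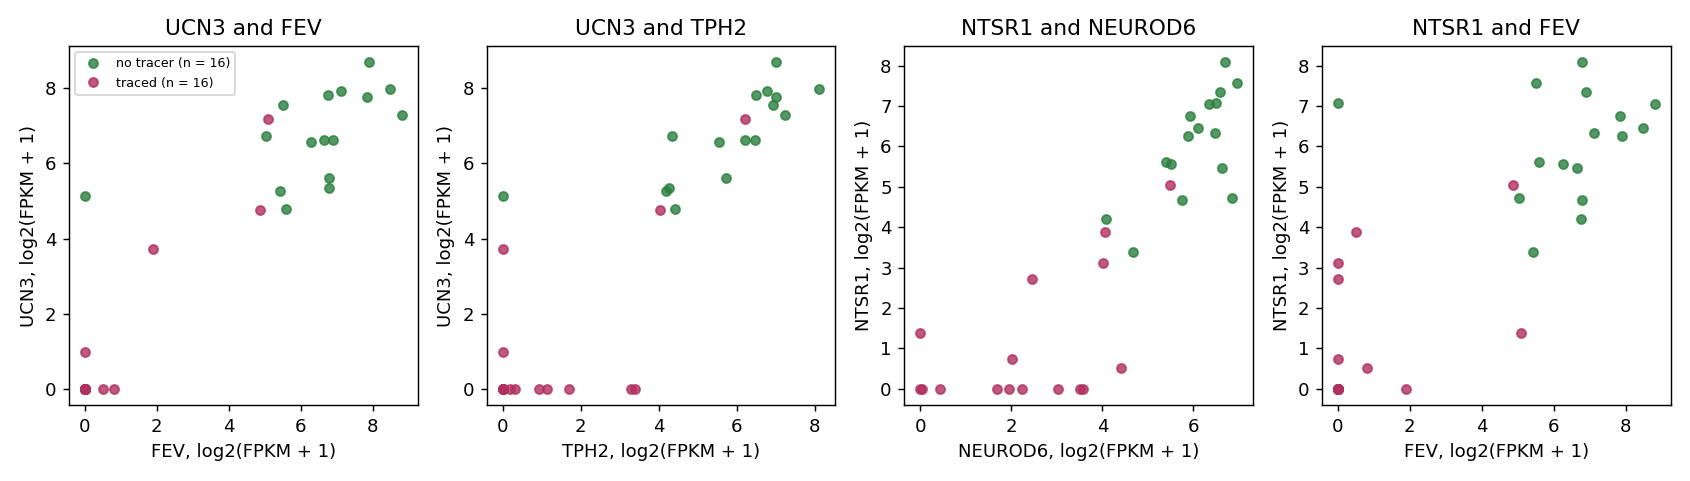
UCN3 against FEV and TPH2, and NTSR1 against NEUROD6 and FEV, in 32 libraries, both axes as log2(FPKM + 1) (green, no tracer, n = 16; red, traced, n = 16). The 2 colours lie mostly apart; within untraced libraries r was 0.576 for UCN3 and FEV and 0.674 for NTSR1 and NEUROD6.

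Most tested markers of V2a cells were lower in traced than in untraced cells. Of 10 listed V2a and glutamatergic IDs 6 were tested. At 3 weeks 2 passed, both lower in D3W than in G3W, of which 1 is given here, beside 1.28% of all genes. In uninjured cells and at 8 weeks 0 passed, with 2 and 1 at an unadjusted p under 0.05, beside 10.6% and 6.95% of all genes. In each comparison 5 of the 6 log2 differences D minus G were below 0 and 1 above. Their medians were -0.23, -2.21 and -1.17 in uninjured, 3 week and 8 week cells, beside -0.16, -0.29 and -0.06 over all tested genes. SOX14 (ENSDARG00000070929), a transcription factor gene of these cells, was lower, at -3.21 log2 (limma, SE 0.68, adjusted p = 0.0102). SOX14 missed the threshold when D3W and G3W were fitted alone (0.128). SLC17A6 (ENSDARG00000041150), a vesicular glutamate transporter gene, was at -0.15, 0.44 and 0.65 in uninjured, 3 week and 8 week cells (limma adjusted p = 0.963, 0.762 and 0.868). The summed level of the 10 IDs was 624 to 1340 FPKM in Gcon and 71.1 to 912 in Dcon. It was 486 to 1104 FPKM in G3W against 83.1 to 250.1 in D3W, and 255 to 1029 in G8W against 160 to 374 in D8W. The part of these levels in the NTSR1 and UCN3 values was not tested.

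In other marker lists few genes passed. Of 12 tested astroglial and ependymal IDs, S100B, which codes for a glial calcium-binding protein, was higher than in Dcon by 5.90 log2 in D3W (limma, SE 1.14, adjusted p = 0.00844) and by 5.24 in D8W (SE 1.09, adjusted p = 0.0432). Of all tested genes 0.803% and 0.0754% passed in these comparisons. The D3W call of S100B was lost without D3W replicates 3 and 5 (0.133) and the D8W call in 14 of 19 alternatives. In D3W against Dcon 11 of the 12 changes were above 0 and 1 below, with a median of 0.92 log2 and 5 at an unadjusted p under 0.05. In D8W against Dcon 11 were above 0 and 1 below, with a median of 1.715 and 3 at such a p. Over all tested genes the medians were 0.01 and 0.20, and 12.5% and 10.7% had such a p. By limma 0 genes passed in any comparison among 8 tested cerebrospinal fluid contacting neuron, 7 motor neuron, 17 microglia and macrophage, 12 oligodendrocyte and Schwann cell and 5 endothelial and mural cell IDs, with 0 to 6 of a list at an unadjusted p under 0.05. The 6 were microglia and macrophage IDs in G8W against Gcon, beside 6.26% of all genes. There 16 of the 17 changes were above 0 and 1 below, with a median of 1.36 log2 beside 0.09 over all tested genes. In D3W against G3W 4 of the 8 cerebrospinal fluid contacting neuron IDs had such a p, beside 13.5% of all genes, with 4 differences above 0 and 4 below. In D8W against G8W 3 of these 8 did, beside 6.95%, with 0 above and 8 below. In G8W against Gcon 3 did, beside 6.26%, with 8 above and 0 below. Of the 12 oligodendrocyte and Schwann cell IDs 4 did in D3W against Dcon (beside 12.5%, 10 above, 2 below). In Dcon against Gcon 4 did (beside 10.6%, 2 above, 10 below), as did 4 of the 17 microglia and macrophage IDs (14 above, 3 below). Other such counts are not all given.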

How the data were processed

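RNA was made into cDNA with a low-input SMART-Seq v4 kit, per the labels. The authors deposited 1 table of FPKM for 42370 genes in 32 libraries. Per the submitters' processing notes, the build was danRer11 and the tools included HTSeq 0.9.1 as well as HISAT2 2.0.5, with no roles given. How lengths and totals entered the FPKM is not given in the sources used here. No genome of that build was used, so no positions or sequences are given.

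Symbols came from a table of IDs and names, which named 29178 IDs. Each library was scaled by the median ratio of its FPKM to the geometric gene means (pseudocount 0.1), over 6387 genes that reached 1 FPKM in 28 or more libraries, and put on a log2 scale with a pseudocount of 1. Such fold changes understate those of low genes. The test took in 22552 genes, those reaching 1 FPKM in 5 or more libraries. All 8 genes described passed this filter, some only through the groups where they are high. One limma fit (3.58.1, R 4.3.3, trend and robust) over the 6 groups gave 9 two-sided comparisons with Benjamini-Hochberg adjustment over all tested genes and a threshold of 0.05. The fit was also run on simulated data, with the deviations of each gene reshuffled over libraries and changes added to genes above a minimum mean level. Such data lack the low detection of whole libraries seen in D3W replicates 3 and 5. That run thus cannot show how the fit handles such libraries or genes mostly at 0. Whole fragments were inferred from the FPKM steps within 0.05, with the shortest gene length that made all values whole. Several lengths fitted each of the 8 genes, for example 20 for NTSR1 and 45 for UCN3. The inferred counts are thus the lowest that fit, and the floors in FPKM the highest. Python 3.11.15 with pandas 2.3.3 and matplotlib 3.10.9 made tables and figures.

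The text names all 8 genes, their receptors, in each of 12 gene lists (3 of the peptide system and 9 of cell types) genes past the threshold, at most 4 per list and comparison, or else the one with the smallest p, of which some are given, and the 4 genes most correlated with NTSR1 and UCN3. Results of some genes in the cell type lists are not reported here. Members and lists were chosen with earlier results of these data known. Alternatives were another pseudocount, no filter, other scalings, array weights, only the groups compared, replicate blocks, leaving out the 2 libraries with fewest genes and leaving out each library. No 2 libraries were identical, and Spearman's rho between libraries of a group was 0.442 to 0.798.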

Additional observations from a re-analysis of the deposited data

Results flagged for a closer look

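In 15 of 47 groups of libraries, 1 library lay far from the nearest of the others by Dixon's test on log2(FPKM + 1). Chance alone flags about 1 group in 20 if values are normally distributed, which does not hold here. Many of these groups are mostly at 0, and a group with the gene in 1 library only is always flagged. NTSR1 held 31.99 FPKM in Dcon replicate 3. UCN3 held 144 FPKM in D3W replicate 1 and 0.966 FPKM in D8W replicate 4, with the remaining libraries of both groups at 0. NTS held 6.32 FPKM in Gcon replicate 2, 2.23 in Dcon replicate 2 and 3.12 in D8W replicate 3. penka held 4.16 FPKM in D3W replicate 4 and 66.2 in D8W replicate 2. pdyn held 7.82 FPKM in Gcon replicate 4, 24.3 in G3W replicate 3, 1.502 in D3W replicate 2 and 3.69 in G8W replicate 4. NPY held 96.3 FPKM in G3W replicate 1 and 49.4 in D8W replicate 1. tac1 was at 0 in D3W replicate 3, the library with the fewest detected genes, while the other D3W libraries held 2054 FPKM or more.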

How the results depend on the processing

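In the 6 comparisons over injury and time, none of the 8 genes passed the threshold under any alternative, and the lowest adjusted p was 0.16. Of 384 values from alternatives other than leaving out 1 library, 14 changed sign. With a pseudocount of 0.1 these were tac1 in D3W against Dcon (-0.048), penka in G3W against Gcon (0.37), in G8W against Gcon (-0.039) and in G8W against G3W (-0.41), and pdyn in G8W against Gcon (0.077). With FPKM as deposited they were penka in G8W against Gcon (-0.043) and against G3W (-0.014). Quantile normalization gave pdyn 0.014 in G8W against Gcon. Array weights gave pdyn 0.14 and tac1 0.21 in G8W against Gcon, and NTS 0.49 in G8W against G3W. With the replicate number as a block, NPY was at 0.072 in D8W against Dcon and penka at 0.20 in G3W against Gcon. Without D3W replicates 3 and 5, UCN3 was at 0.67 in D3W against Dcon. The cause was not tested.

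Leaving out 1 library gave 512 values, of which 56 in 20 results changed sign. The range for NTSR1 was -0.97 to 0.29 in D3W against Dcon. The range for NTS was -0.015 to 0.95 in D3W against Dcon, -0.82 to 0.18 in D8W against D3W, -0.20 to 0.49 in D8W against Dcon, -0.94 to 1.17 in G8W against G3W. The range for UCN3 was -1.70 to 0.48 in D3W against Dcon, -1.59 to 0.18 in D8W against D3W. The range for SST was -0.012 to 1.68 in G8W against G3W. The range for penka was -0.43 to 1.15 in D8W against D3W, -0.62 to 0.71 in G3W against Gcon, -0.80 to 0.98 in G8W against G3W, -0.82 to 0.96 in G8W against Gcon. The range for pdyn was -0.13 to 1.31 in D8W against Dcon, -0.33 to 0.96 in G3W against Gcon, -0.96 to 0.32 in G8W against G3W, -0.47 to 0.46 in G8W against Gcon. The range for NPY was -1.07 to 0.45 in D8W against Dcon, -1.42 to 0.54 in G8W against G3W. The range for tac1 was -0.47 to 3.04 in D3W against Dcon, -1.52 to 0.16 in G8W against Gcon.

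The number of genes called over the whole table moved most. It was 181 in D3W against Dcon, 17 in D8W against Dcon, 19 in G3W against Gcon, 7 in G8W against Gcon, 9 in D8W against D3W, 1 in G8W against G3W, 65 in Dcon against Gcon, 289 in D3W against G3W, 15 in D8W against G8W in the fit reported. With FPKM as deposited it was 38 in G3W against Gcon, 5 in D8W against D3W, 2 in G8W against G3W, 157 in Dcon against Gcon, 750 in D3W against G3W, 35 in D8W against G8W, and genes of the 3 peptide lists called were 1 in D8W against Dcon, 1 in G3W against Gcon, 3 in D3W against G3W, 1 in D8W against G8W. With array weights it was 72 in D3W against Dcon, 106 in G3W against Gcon, 90 in G8W against Gcon, 4 in D8W against D3W, 15 in G8W against G3W, 141 in Dcon against Gcon, 23 in D8W against G8W, and genes of the 3 peptide lists called were 2 in G3W against Gcon, 1 in G8W against G3W, 1 in Dcon against Gcon, 2 in D3W against G3W. With no filter it was 65 in D3W against Dcon, 8 in D8W against Dcon, 9 in G3W against Gcon, 2 in G8W against Gcon, 4 in D8W against D3W, 35 in Dcon against Gcon, 6 in D8W against G8W. With only the 2 groups compared it was 16 in D3W against Dcon, 3 in G8W against Gcon, 1 in D8W against D3W, 0 in G8W against G3W, 114 in D3W against G3W, 9 in D8W against G8W. With a pseudocount of 0.1 it was 43 in Dcon against Gcon, 7 in D8W against G8W. With quantile normalization it was 4 in G8W against Gcon, 5 in D8W against D3W, 0 in G8W against G3W, 38 in Dcon against Gcon. With the replicate block it was 1 in G8W against Gcon, 9 in D8W against G8W. With a replicate block of state and number it was 41 in Dcon against Gcon, 159 in D3W against G3W, 4 in D8W against G8W. Without D3W replicates 3 and 5 it was 21 in D3W against Dcon, 46 in D8W against Dcon, 10 in G3W against Gcon, 4 in D8W against D3W, 128 in Dcon against Gcon, 52 in D3W against G3W, 29 in D8W against G8W, and genes of the 3 peptide lists called were 2 in D8W against Dcon, 0 in D3W against G3W. Without 1 library it ran 61 to 557 in D3W against Dcon, 5 to 32 in D8W against Dcon, 8 to 18 in G3W against Gcon, 2 to 7 in G8W against Gcon, 4 to 53 in D8W against D3W, 0 to 3 in G8W against G3W, 20 to 91 in Dcon against Gcon, 135 to 282 in D3W against G3W, 7 to 25 in D8W against G8W. In the peptide lists, where 1 gene passed in D3W against G3W and 0 elsewhere, the count ran from 0 to 1 without 1 library in D3W against Dcon, D8W against Dcon, G3W against Gcon, G8W against G3W, D3W against G3W, D8W against G8W.

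Same-numbered libraries shared little deviation: in each comparison 0 or 1 of 5 pairs had deviations correlated above 0.1, with r from -0.125 to 0.137. Such values cannot tell whether these libraries came from the same fish. The replicate block may thus share only a number, and it moved the counts as given above. FPKM as deposited moved the median of all genes to -0.31, -0.58 and -0.32 for uninjured, 3 week and 8 week cells (D minus G), from -0.16, -0.29 and -0.06. Values at 0 limit what can be said of NTS, pdyn and NPY, whose changes rest on few libraries.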
